A study of Homo sapiens with 9 samples.

Results

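The genes described here encode the subunits of the respiratory chain and the ATP synthase that are made from nuclear DNA. They were taken by symbol among protein-coding genes, as NDUFA, NDUFB, NDUFC, NDUFS and NDUFV followed by a number, UQCR, CYC1, COX4 to COX8 and ATP5. The rule gave 82 of the 36018 genes counted, with 38 in complex I, 10 in complex III, 15 in complex IV and 19 in complex V. Of these, 77 had enough counts to be tested, among 17902 genes tested in all. COX4I2, COX6B2, COX7A1, COX8C and ATP5MGL did not. The carrier protein NDUFAB1, the complex II genes and cytochrome c lay outside the rule, and COX6A2 and COX7B2 were not analysed here.

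Complex I takes electrons from NADH, complex III passes them on to cytochrome c, and complex IV, cytochrome c oxidase, hands them to oxygen. Protons pumped on the way drive complex V, the ATP synthase. Cytochrome b of complex III, the catalytic core of complex IV and parts of the membrane domains of complexes I and V come from mitochondrial DNA, so each of these complexes is built from the products of both genomes. The nuclear genes NDUFA4L2 and COX4I2 are known as alternative subunits induced when oxygen is short. NDUFA4L2 is a paralogue of NDUFA4, a protein now placed in complex IV although its symbol counts it here under complex I.

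RNA sequencing was done on 9 libraries of cells labelled HCT-15, a human colorectal adenocarcinoma line with the genotype given as WT, all grown in RPMI medium with 10% fetal bovine serum. A CoCl2-tolerant line, a low-glucose-tolerant line and untreated control cells had 3 libraries each. Cobalt chloride mimics hypoxia by stabilising hypoxia-inducible factor (HIF), and low glucose limits glycolysis. Each tolerant line was raised once, by culture in growing amounts of its stressor, no concentration is stated, and a line tolerant to brefeldin A was not analysed here. The labels do not state whether libraries of one group come from different cultures. P-values therefore describe library-to-library spread only, and it may be technical.

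Libraries held 25178615 to 32674687 counts, and levels are given as CPM, each library's counts scaled to a common total, after scaling by trimmed means (TMM). The colon label was checked on 9 intestinal markers, of which 8 were under 1 CPM in every group, while all 5 epithelial markers were above it. Of 7 fibroblast markers, COL1A1, COL1A2, PDGFRB and THY1 had a mean of at least 1 CPM in some group, and COL3A1, DCN and LUM did not. The 7 had a summed level of 644 to 750 CPM in CoCl2-tolerant, 156 to 196 CPM in low-glucose-tolerant and 2490 to 2532 CPM in control libraries. The sum does not describe each marker. In the low-glucose-tolerant line against control COL1A1 and THY1 fell and DCN rose (edgeR adjusted p under 0.05). The median log2 fold change of the 6 tested was 0.06, with a range of -6.43 to 3.78. In the CoCl2-tolerant line COL1A1, PDGFRB and THY1 fell and none rose, at a median of -1.58. The part of these markers in the results below was not tested. In bulk RNA, fewer cells of a type and less RNA per cell cannot be told apart.

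The subunit genes moved together between libraries of the same line. In the low-glucose-tolerant line replicate 2 was the lowest of the 3 libraries for 73 of the 77 genes and replicate 3 the highest for 65. In the CoCl2-tolerant line replicate 1 was the highest for 62 and replicate 2 the lowest for 58. Control libraries showed no such order, with each of the 3 the highest for 16 to 33 genes. The median coefficient of variation of a subunit gene was 16% in CoCl2-tolerant, 25% in low-glucose-tolerant and 5.89% in control libraries (n = 3 each).

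The same order appeared in the share of counts taken by cytosolic ribosomal protein genes. That share was 5.33, 4.27 and 4.80% in CoCl2-tolerant replicates 1 to 3, 9.35, 7.23 and 10.8% in low-glucose-tolerant replicates 1 to 3, and 3.51 to 3.65% in control libraries. Over all genes, the median deviation of these libraries from their group mean lay between -0.03 and 0.01 on the log2 scale, against -0.40 for the subunit genes in low-glucose-tolerant replicate 2 and 0.27 in replicate 3. The part of this shared variation in the results was not tested beyond leaving out each library in turn, and leaving the ribosomal protein genes out before scaling.

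**Figure D1:**
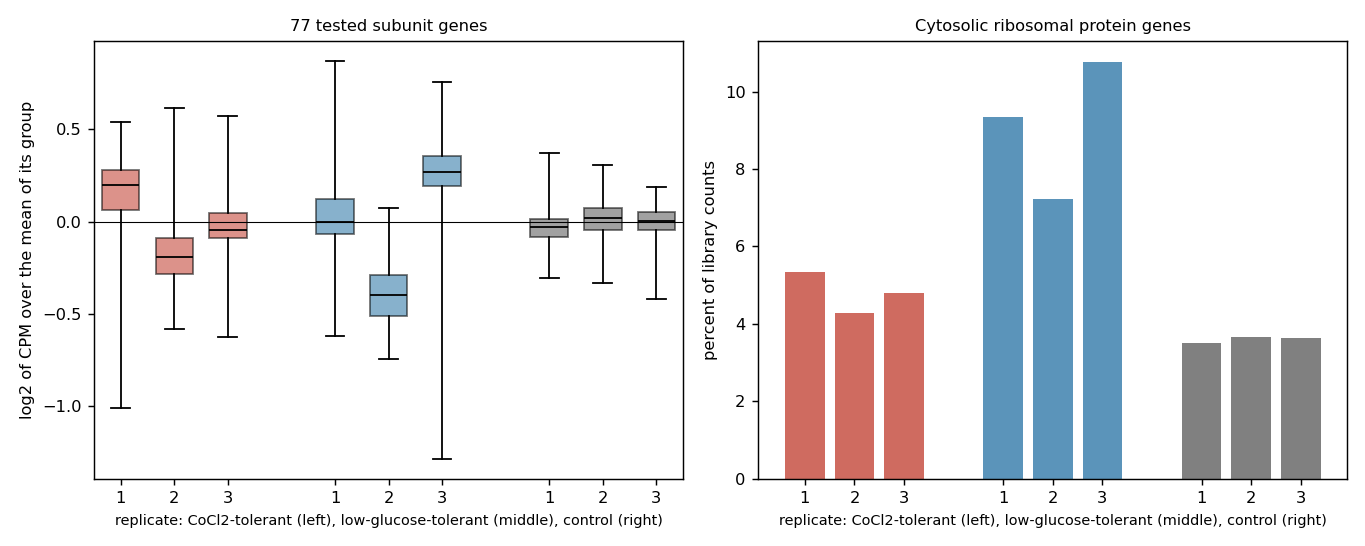
Left, log2 of the CPM of the 77 tested subunit genes over the mean of their own group, by library, with boxes over the interquartile range, a line at the median and whiskers to the extremes. Right, percent of library counts in cytosolic ribosomal protein genes. Low-glucose-tolerant replicate 2 and CoCl2-tolerant replicate 2 are the lowest of their groups on both sides, and the control libraries lie close together.

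Several of the genes with the largest rises have a promoter window in RefSeq's table for GRCh38.p14, from 250 bases before to 50 bases after the start. Windows were found for 64 of the 82 genes, 77 windows in all. Those printed are the gene of each complex with the largest rise in the low-glucose-tolerant line among genes with a window (the first listed where there are several), and COX4I1, the partner of COX4I2. NDUFA8 is an accessory subunit of complex I, UQCRC2 a core protein of complex III, COX7A2L a factor that joins complexes III and IV, and ATP5MC2 one of the genes for the c-ring of ATP synthase. Capitals mark matches, on either strand, to GCATGCGC (core of the site of the transcription factor NRF1), CCGGAAG (ETS factors, among them GABPA), and ACGTG or GCGTG (HIF core). Matches may overlap.
NDUFA8, chr9:122159730-122160029, minus strand: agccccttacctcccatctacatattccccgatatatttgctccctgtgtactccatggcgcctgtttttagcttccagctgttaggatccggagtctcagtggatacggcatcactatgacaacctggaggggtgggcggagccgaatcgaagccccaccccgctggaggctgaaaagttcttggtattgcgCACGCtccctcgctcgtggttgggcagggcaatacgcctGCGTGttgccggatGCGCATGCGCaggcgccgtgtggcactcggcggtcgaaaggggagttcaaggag
UQCRC2, chr16:21953111-21953410, plus strand: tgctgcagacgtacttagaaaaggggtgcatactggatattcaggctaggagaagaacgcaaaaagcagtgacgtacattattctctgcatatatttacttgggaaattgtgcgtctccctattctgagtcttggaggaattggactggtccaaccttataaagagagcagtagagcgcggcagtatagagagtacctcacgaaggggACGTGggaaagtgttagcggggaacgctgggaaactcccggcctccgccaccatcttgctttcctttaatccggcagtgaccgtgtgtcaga
COX7A2L, chr2:42361168-42361467, minus strand: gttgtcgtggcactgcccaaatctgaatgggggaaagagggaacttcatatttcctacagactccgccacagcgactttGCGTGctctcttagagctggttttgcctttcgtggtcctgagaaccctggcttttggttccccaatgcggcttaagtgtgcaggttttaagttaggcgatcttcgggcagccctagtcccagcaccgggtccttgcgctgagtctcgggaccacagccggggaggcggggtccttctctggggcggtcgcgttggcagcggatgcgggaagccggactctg
ATP5MC2, chr12:53676034-53676333, minus strand: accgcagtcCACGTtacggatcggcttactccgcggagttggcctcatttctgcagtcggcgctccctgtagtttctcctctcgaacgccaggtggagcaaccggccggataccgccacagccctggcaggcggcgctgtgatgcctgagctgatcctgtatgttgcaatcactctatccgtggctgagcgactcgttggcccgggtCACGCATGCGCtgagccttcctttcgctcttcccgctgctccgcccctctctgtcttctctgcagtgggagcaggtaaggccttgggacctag
COX4I1, chr16:85799445-85799744, plus strand: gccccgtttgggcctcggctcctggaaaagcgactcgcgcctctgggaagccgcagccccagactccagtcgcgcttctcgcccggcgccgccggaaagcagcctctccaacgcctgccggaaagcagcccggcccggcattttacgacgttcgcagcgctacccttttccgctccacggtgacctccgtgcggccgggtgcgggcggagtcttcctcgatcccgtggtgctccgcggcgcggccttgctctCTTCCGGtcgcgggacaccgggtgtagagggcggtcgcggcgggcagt

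The NRF1 core stood in the windows of NDUFA8 and ATP5MC2, the ETS sequence in that of COX4I1, and a HIF core in all of these windows but that of COX4I1. Over all windows of the subunit genes the NRF1 core was present in 13 of 77 (16.9%), against 3.05% of the 35116 windows in the table. The ETS sequence was present in 20 of 77 (26.0%), against 10.3%, and a HIF core in 48 of 77 (62.3%), against 48.4%. A match describes letters in a window and does not show that a factor binds there. NRF1, the factor itself, measured 14.5 to 18.9 CPM in CoCl2-tolerant, 15.7 to 16.8 CPM in low-glucose-tolerant and 15.1 to 16.2 CPM in control libraries, ranges that overlap.

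Comparing the CoCl2-tolerant line with control asked how the chain's mRNAs stood in cells adapted to a hypoxia mimetic. NDUFA4L2 was the 1 subunit gene that rose at least 2-fold, where 4.59% of all genes tested did (and 6.49% fell that far). Of the 77 genes tested, 18 rose (23.4%), where 17.9% of all genes tested did, so the share that rose was near the background. None fell, where 18.2% of all genes did. The median log2 fold change was 0.27 over the subunit genes and 0.01 over all genes, and 68 of the 77 values were above 0. All CoCl2-tolerant libraries lay above all control libraries for 38 of the genes, where this held for 28.3% of all genes, and below them for 2, where it held for 28.8%. By complex the median was 0.29 for complex I with 12 of 38 genes higher, 0.14 for complex III with 1 of 10, 0.41 for complex IV with 3 of 11, and 0.27 for complex V with 2 of 18. Calls are edgeR's quasi-likelihood test at a Benjamini-Hochberg adjusted p under 0.05 over all genes.

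The count of 18 rested on the libraries used. It was 6, 7 and 8 without control replicates 1, 2 and 3, 6 without CoCl2-tolerant replicate 1, 7 without CoCl2-tolerant replicate 3, and 30 without low-glucose-tolerant replicate 2, whose spread enters the shared variance. It was 33 when only these 6 libraries were fitted. Without CoCl2-tolerant replicate 1 the medians of complexes I, III and IV were 0.17, 0.09 and 0.24. Before adjustment 24 genes were higher and 2, NDUFS1 and NDUFV2, lower at p under 0.05, and DESeq2's Wald test called 17 higher and 0 lower.

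Comparing the low-glucose-tolerant line with control asked the same of cells adapted to scarce sugar. Here 38 of the 77 genes rose (49.4%), where 34.6% of all genes tested did, and 6 fell (7.79%), where 34.6% did. The median log2 fold change was 0.38 over the subunit genes and -0.01 over all genes. Complex IV had the highest median at 0.77, with 8 of 11 genes higher and the rest not past the threshold, and complex I followed at 0.43, with 20 of 38 higher and 5 lower. All low-glucose-tolerant libraries lay above control for 33 genes, where 36.4% of all genes did, and below it for 5, where 36.9% did. Complex III had a median of 0.22 with 3 of 10 higher, and complex V 0.32 with 7 of 18 higher and 1 lower. A change of at least 2-fold was reached by 10 genes that rose (13.0%), where 15.7% of all genes rose that far, and by 1 that fell, where 21% fell that far.

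With each library left out in turn, 32 to 51 genes were higher, and the 6 genes that fell became 3 without control replicate 3 or without low-glucose-tolerant replicate 2. Without low-glucose-tolerant replicate 3 the medians of complexes I, III, IV and V were 0.27, 0.03, 0.47 and 0.14, and without replicate 2 of that line those of complexes III and V were 0.41 and 0.51. The median of complex III was also 0.11 on library totals and 0.13 with a filter at 5 CPM.

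**Figure D2:**
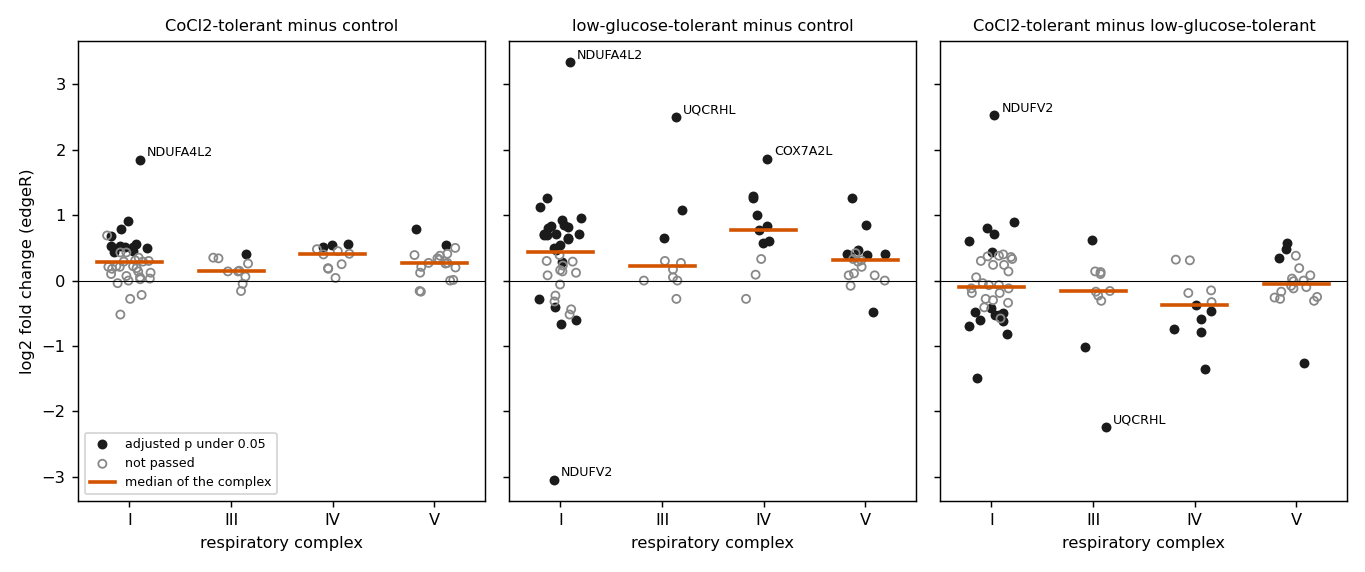
Log2 fold change (edgeR) of each tested subunit gene by complex in the 3 comparisons. Filled points passed an adjusted p of 0.05, open points did not, and bars are medians of the complex. Complex IV has the highest median against control in both tolerant lines, 0.41 and 0.77.

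Of the tolerant lines set against each other, the CoCl2-tolerant line had 10 subunit genes higher (13.0%), where 31.9% of all genes were, and 19 lower (24.7%), where 32% were. Both shares lay below the background. Complex IV had 6 of 11 genes lower and 5 not past the threshold, with a median log2 difference of -0.38 (-0.63 without CoCl2-tolerant replicate 1, -0.23 without low-glucose-tolerant replicate 3, and -0.58 with the trend on length and GC content removed). At an unadjusted p under 0.05, 11 genes of the 77 were higher and 21 lower. The split depended on scaling, with 15 higher and 15 lower on library totals alone, and 8 higher and 30 lower once a trend on transcript length and GC content was removed. Without low-glucose-tolerant replicate 2 it was 6 higher and 33 lower, and without replicate 3 of that line 19 genes were higher.

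NDUFA4L2 (chr12:57234903-57240715, GRCh38) had the largest rise of any subunit gene in both comparisons with control. It measured 4.98, 4.69 and 4.31 CPM in CoCl2-tolerant libraries, 12.6, 12.2 and 14.6 CPM in low-glucose-tolerant libraries, and 1.59, 1.03 and 1.27 CPM in control libraries. The 3 groups did not overlap, and the low-glucose-tolerant line was the highest. The log2 fold change was 1.85 ± 0.18 (SE) in the CoCl2-tolerant line (edgeR quasi-likelihood adjusted p = 3.34e-06) and 3.34 ± 0.17 in the low-glucose-tolerant line (adjusted p = 8.15e-10). Between the tolerant lines the difference was -1.49 ± 0.15 (edgeR adjusted p = 9.91e-07). The call stood in each of the 19 alternatives tried in all 3 comparisons.

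NDUFA4, its paralogue, measured 56.4, 43.0 and 50 CPM in CoCl2-tolerant, 77.9, 52.3 and 84.5 CPM in low-glucose-tolerant and 34.3, 41.0 and 34.7 CPM in control libraries. Both tolerant lines lay above control without overlap, and they overlapped each other. Its log2 fold change was 0.96 in the low-glucose-tolerant line (edgeR adjusted p = 0.000116) and 0.44 in the CoCl2-tolerant line (adjusted p = 0.0486), a call lost in 11 of 19 alternatives. Per length of exon, NDUFA4L2 made up 10.7 ± 1.27% of the summed level of the pair in CoCl2-tolerant, 19.2 ± 3.08% in low-glucose-tolerant and 4.36 ± 1.24% in control libraries (SD, n = 3 each). NDUFA4 stayed the more abundant of the pair in every library.

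COX4I2, the alternative form of COX4I1, was at the edge of detection. It had 1, 1 and 3 counts in CoCl2-tolerant libraries and 0 in each low-glucose-tolerant and control library. Over a group this was 0.0624 CPM in CoCl2-tolerant libraries (95% Poisson interval 0.0203 to 0.146), against upper limits of 0.0409 CPM in low-glucose-tolerant and 0.0393 CPM in control libraries. These ranges overlap, so no difference was detectable at this depth, and none was tested, since the gene did not pass the filter on counts. COX4I2 was at most 0.265% of the pair per length in any library. The lung markers listed beside it (SFTPB, SFTPC and SCGB1A1) were all under 1 CPM.

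Other tissue-restricted forms were equally scarce. COX6B2, a testis form of COX6B1, had 0 counts over the CoCl2-tolerant, 4 over the low-glucose-tolerant and 12 over the control libraries. COX7A1, the heart and muscle form of COX7A2, had 6 counts over the CoCl2-tolerant, 5 over the low-glucose-tolerant and 10 over the control libraries. COX8C had 1 to 3 counts in every group, and ATP5MGL had 1 count in the CoCl2-tolerant line and none elsewhere. For COX6B2 the Poisson intervals of CoCl2-tolerant (0 to 0.046 CPM) and control libraries (0.0661 to 0.223 CPM) did not overlap. That of the low-glucose-tolerant libraries (0.0121 to 0.114 CPM) overlapped both. Control replicate 3 held 7 of the 12 control counts, and no difference was tested. The counts of COX7A1, COX8C and ATP5MGL are too few to compare. Intervals and floors cover counting error only.

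Within complex I, the NADH-oxidising tip and the ubiquinone-binding arm hold the nuclear-encoded core subunits. NDUFV1, the flavin-binding core subunit, averaged 107 ± 21 CPM in CoCl2-tolerant, 122 ± 24 CPM in low-glucose-tolerant and 85.9 ± 3.7 CPM in control libraries (SD, n = 3 each). It rose in the low-glucose-tolerant line (log2 fold change 0.50, edgeR adjusted p = 0.00919) and measured 0.31 in the CoCl2-tolerant line (adjusted p = 0.127). The core subunits NDUFS3, NDUFS7 and NDUFS8 of the ubiquinone arm also rose in the low-glucose-tolerant line, by 0.69, 0.71 and 0.71. In the CoCl2-tolerant line these 3 had values of 0.22 to 0.35, none past the threshold.

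NDUFV2, the iron-sulphur partner of NDUFV1, had the largest fall of any subunit gene. It measured 1.36, 1.65 and 2.26 CPM in CoCl2-tolerant, 0.374, 0.240 and 0.290 CPM in low-glucose-tolerant and 2.89, 2.35 and 2.35 CPM in control libraries. All low-glucose-tolerant libraries lay below all others. The log2 fold change was -3.05 ± 0.28 in the low-glucose-tolerant line (edgeR adjusted p = 3.29e-07) and -0.52 ± 0.22 in the CoCl2-tolerant line (adjusted p = 0.0802), and the tolerant lines differed by 2.53 (adjusted p = 4.48e-06). The level was low for an obligatory subunit in every group, with 34, 47 and 64 reads in CoCl2-tolerant, 11, 7 and 8 in low-glucose-tolerant and 89, 80 and 74 in control libraries. Per length it stood at 0.648, 0.111 and 0.933 CPM per kilobase of exon in the CoCl2-tolerant, low-glucose-tolerant and control groups, against 21.1, 24.1 and 16.99 for NDUFV1. Whether reads of this gene were lost to its processed pseudogene or to other copies was not tested, so its level is uncertain.

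NDUFS1, the largest core subunit, was lower by a small margin. It measured 100.3, 95.1 and 96.0 CPM in CoCl2-tolerant, 93.1, 98.5 and 89.1 CPM in low-glucose-tolerant and 113.7, 116.8 and 109.1 CPM in control libraries. Both tolerant lines lay below control without overlap. The log2 fold change was -0.28 in the low-glucose-tolerant line (edgeR adjusted p = 0.0188) and -0.22 in the CoCl2-tolerant line (adjusted p = 0.0844). The fall in the low-glucose-tolerant line turned to a rise of 0.27 when the trend on transcript length and GC content was removed, and the call was lost without control replicate 1 or 2.

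Among accessory subunits, which surround the core, NDUFC2 and NDUFB8 of the membrane arm led the rises in the CoCl2-tolerant line after NDUFA4L2. NDUFC2 measured 5.86, 6.58 and 8.40 CPM in CoCl2-tolerant, 5.71, 4.52 and 5.18 CPM in low-glucose-tolerant and 3.74, 3.85 and 3.53 CPM in control libraries. Both tolerant lines were above control without overlap, with log2 fold changes of 0.91 (edgeR adjusted p = 0.000697) in the CoCl2-tolerant and 0.47 (adjusted p = 0.0199) in the low-glucose-tolerant line. NDUFB8 averaged 5.11 ± 0.87 CPM in CoCl2-tolerant and 2.95 ± 0.48 CPM in control libraries (log2 fold change 0.79, edgeR adjusted p = 0.00868), and 48.5% of its exon bases are shared with another annotated gene.

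In the low-glucose-tolerant line the accessory subunits NDUFB5 and NDUFA8 had the largest rises after NDUFA4L2. NDUFB5 measured 3.89, 7.98 and 11.7 CPM in CoCl2-tolerant, 17.8, 7.71 and 9.95 CPM in low-glucose-tolerant and 5.17, 4.97 and 4.54 CPM in control libraries. Its rise in the low-glucose-tolerant line (1.27, edgeR adjusted p = 0.00325) was carried most by replicate 1, and the CoCl2-tolerant libraries spread on both sides of control. NDUFA8 measured 17.1, 12.8 and 14.9 CPM in CoCl2-tolerant, 22.8, 18.4 and 31.5 CPM in low-glucose-tolerant and 11.2, 10.7 and 11.3 CPM in control libraries, with no overlap among the 3 groups. Its log2 fold change was 1.13 (edgeR adjusted p = 4.55e-05) in the low-glucose-tolerant and 0.43 (adjusted p = 0.0666) in the CoCl2-tolerant line.

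The other complex I genes that fell in the low-glucose-tolerant line were NDUFB3 and NDUFA11 of the membrane arm and NDUFS6, which takes part in building the NADH-oxidising tip. NDUFB3 measured 30.9, 21.1 and 27.4 CPM in CoCl2-tolerant, 16.6, 9.94 and 18.6 CPM in low-glucose-tolerant and 23.5, 24.6 and 23.7 CPM in control libraries. The low-glucose-tolerant libraries lay below both other groups (log2 fold change -0.67 against control, edgeR adjusted p = 0.00679). NDUFA11 and NDUFS6 had log2 fold changes of -0.60 and -0.41 there, with libraries that overlapped control. Between the tolerant lines all 3 were higher in the CoCl2-tolerant line, by 0.81, 0.89 and 0.60.

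In complex III the nuclear catalytic subunits CYC1 (cytochrome c1) and UQCRFS1 (the Rieske iron-sulphur protein) did not pass the test in any comparison. CYC1 averaged 82.0 ± 13.6 CPM in CoCl2-tolerant, 91.4 ± 13.8 CPM in low-glucose-tolerant and 91.6 ± 5.3 CPM in control libraries (SD, n = 3 each). UQCRC2, a core protein of the matrix side, measured 102.9, 91.4 and 92.3 CPM in CoCl2-tolerant, 194.4, 174.1 and 210.6 CPM in low-glucose-tolerant and 93.0, 92.0 and 89.7 CPM in control libraries. All low-glucose-tolerant libraries lay above all others (log2 fold change 1.08 ± 0.10, edgeR adjusted p = 5.14e-07, and -1.01 for CoCl2-tolerant minus low-glucose-tolerant). Its partner UQCRC1 had log2 fold changes of 0.15 and 0.05 against control in the CoCl2-tolerant and low-glucose-tolerant lines, neither past the threshold.

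UQCRHL, a near-identical copy of the hinge protein gene UQCRH, had a log2 fold change of 2.5 in the low-glucose-tolerant line (edgeR adjusted p = 0.000131), on 42.9, 17.9 and 9.63 CPM in low-glucose-tolerant and 3.96, 4.94 and 3.49 CPM in control libraries. Counting could divide reads between the copies, so neither value is certain. Summed with UQCRH the level was 92.7, 68.2 and 139.3 CPM in low-glucose-tolerant libraries and 70.6, 71.4 and 74.1 CPM in control libraries, which overlapped. The share of the sum given to UQCRHL ran from 6.91 to 46.3% among low-glucose-tolerant libraries, against 4.72 to 6.91% in control.

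The small complex III subunits were mixed. UQCR11 rose in the CoCl2-tolerant line (12.9 ± 0.66 CPM there and 9.71 ± 0.48 CPM in control, log2 fold change 0.41, edgeR adjusted p = 0.0322), a call lost when any 1 of those 6 libraries was left out. UQCR10 rose in the low-glucose-tolerant line (0.65, edgeR adjusted p = 0.00653). UQCRQ was higher in the CoCl2-tolerant than in the low-glucose-tolerant line by 0.62 (edgeR adjusted p = 0.0084), with values of 0.35 and -0.28 against control that did not pass.

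In complex IV, 8 of 11 genes rose in the low-glucose-tolerant line (72.7%, where 34.6% of all genes did). In the CoCl2-tolerant line 3 rose (27.3%, where 17.9% of all genes did). COX4I1 (chr16:85798633-85807044), the ubiquitous form of a subunit that regulates the oxidase, measured 320.5, 232.2 and 275.2 CPM in CoCl2-tolerant, 452.3, 356.8 and 574.8 CPM in low-glucose-tolerant and 185.6, 185.9 and 189.4 CPM in control libraries. The 3 groups did not overlap. The log2 fold change was 0.56 ± 0.16 in the CoCl2-tolerant line (edgeR adjusted p = 0.0124, and 0.0540 without CoCl2-tolerant replicate 1) and 1.30 ± 0.16 in the low-glucose-tolerant line (adjusted p = 4.64e-06). COX7A2L (chr2:42333546-42425088) measured 103.6, 101.3 and 109.9 CPM in CoCl2-tolerant, 291.2, 218.6 and 293.7 CPM in low-glucose-tolerant and 73.3, 73.5 and 74.0 CPM in control libraries. Again no group overlapped another, with log2 fold changes of 0.51 ± 0.12 (edgeR adjusted p = 0.00403) and 1.86 ± 0.12 (adjusted p = 7.69e-09) that passed in all 19 alternatives.

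COX5B, a zinc-binding subunit, rose in both lines, by 0.54 in the CoCl2-tolerant (edgeR adjusted p = 0.0380) and 1.01 in the low-glucose-tolerant line (adjusted p = 0.000276), and the first of these calls was lost without any 1 of the control libraries, CoCl2-tolerant replicate 1 or 3, or low-glucose-tolerant replicate 1. COX5A, COX6A1, COX6B1, COX7A2 and COX8A rose in the low-glucose-tolerant line by 0.57 to 1.26, and had values of 0.19 to 0.48 in the CoCl2-tolerant line that did not pass. The call of COX8A was lost without control replicate 1 or 3 or low-glucose-tolerant replicate 3. Against the CoCl2-tolerant line directly, COX5A, COX6A1 and COX6B1 differed past the threshold, with the calls of COX6A1 and COX6B1 lost in 5 and 6 of 19 alternatives, and COX7A2 and COX8A did not pass. COX6A1 measured 20.4, 11.2 and 14.8 CPM in CoCl2-tolerant, 24.4, 15.8 and 39.3 CPM in low-glucose-tolerant and 10.7, 13.5 and 9.02 CPM in control libraries, a spread in which low-glucose-tolerant replicate 3 stood far above replicate 2. COX6C, COX7B and COX7C passed in no comparison.

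In complex V the catalytic subunits changed by small amounts. ATP5F1B, the catalytic beta subunit and the most abundant subunit mRNA per length, averaged 724 ± 110 CPM in CoCl2-tolerant, 882 ± 106 CPM in low-glucose-tolerant and 668 ± 30 CPM in control libraries (SD, n = 3 each). It rose in the low-glucose-tolerant line (0.40, edgeR adjusted p = 0.0109) and measured 0.12 in the CoCl2-tolerant line. ATP5F1A, the alpha subunit, had log2 fold changes of -0.17 and 0.08 that did not pass. ATP5F1D, the delta subunit of the central stalk, rose in both lines, by 0.54 (edgeR adjusted p = 0.0208) in the CoCl2-tolerant and 0.85 (adjusted p = 0.000382) in the low-glucose-tolerant line, and the call in the CoCl2-tolerant line was lost without any 1 control library or CoCl2-tolerant replicate 1 or 3.

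ATP5MC1, ATP5MC2 and ATP5MC3 encode the same c-ring protein of the rotor, and of these ATP5MC2 alone passed the test. It measured 183.4, 145.1 and 148.2 CPM in CoCl2-tolerant, 361.5, 325.4 and 454.2 CPM in low-glucose-tolerant and 155.0, 151.2 and 171.2 CPM in control libraries. All low-glucose-tolerant libraries lay above all others (log2 fold change 1.26 ± 0.14, edgeR adjusted p = 1.50e-06, and -1.26 for CoCl2-tolerant minus low-glucose-tolerant). ATP5MC1 and ATP5MC3 had log2 fold changes of 0.29 and 0.00 in the low-glucose-tolerant line. Per length, ATP5MC2 made up 61.7 ± 2.58% of the 3 in CoCl2-tolerant, 78.1 ± 1.51% in low-glucose-tolerant and 62.0 ± 3.0% in control libraries (SD, n = 3 each).

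ATP5PO, the stalk subunit that confers oligomycin sensitivity, led complex V in the CoCl2-tolerant line, at 37.8, 26.3 and 30.9 CPM there, 23.5, 13.5 and 26.9 CPM in low-glucose-tolerant and 19.4, 18.1 and 17.5 CPM in control libraries. The CoCl2-tolerant libraries were above control without overlap (log2 fold change 0.79, edgeR adjusted p = 0.00786). ATP5IF1, which blocks ATP hydrolysis when respiration fails, was the only complex V gene that fell. It measured 53.2, 48.0 and 46.0 CPM in CoCl2-tolerant, 34.2, 25.2 and 45.2 CPM in low-glucose-tolerant and 47.9, 46.2 and 52.1 CPM in control libraries. Low-glucose-tolerant libraries lay below control (log2 fold change -0.48, edgeR adjusted p = 0.0176), with replicate 3 close to it, and the call was lost without control replicate 3 or low-glucose-tolerant replicate 1 or 2.

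**Figure D3:**
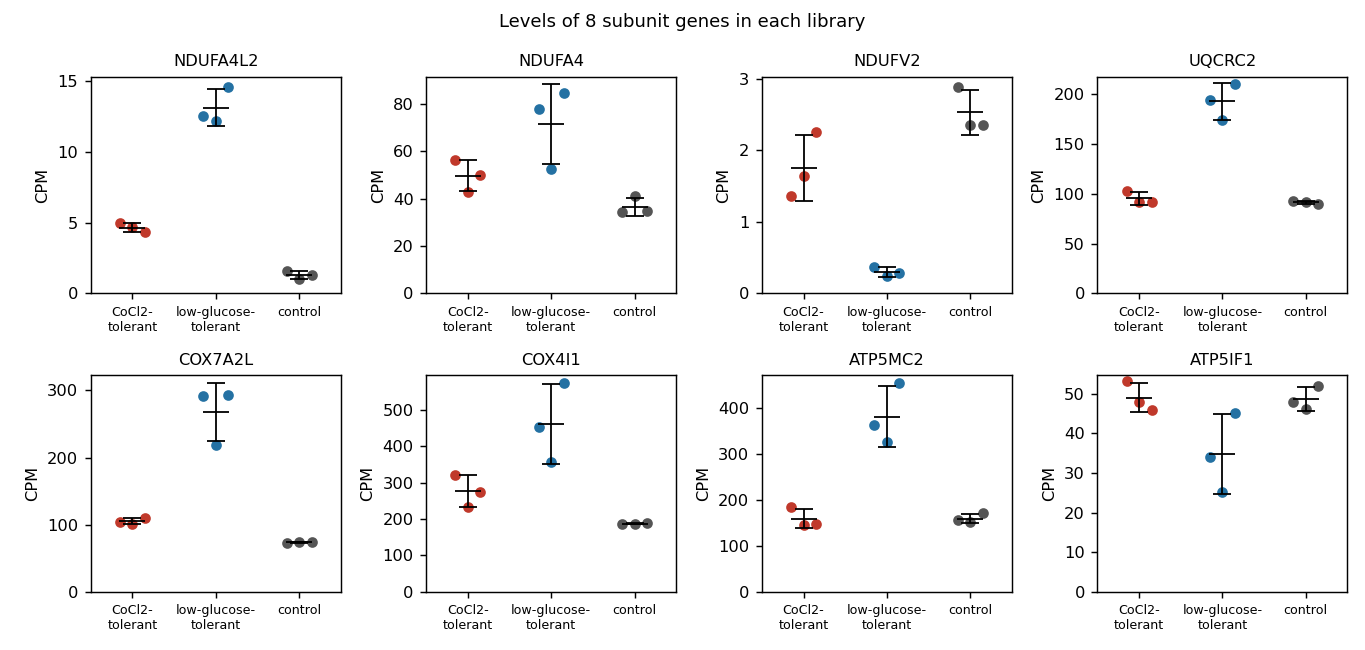
CPM of 8 subunit genes in each library (points), with the mean and SD of the 3 libraries of a group (bars), and axes from 0. NDUFA4L2, UQCRC2, COX7A2L, COX4I1 and ATP5MC2 are highest in all low-glucose-tolerant libraries, and NDUFV2 and ATP5IF1 are lowest there.

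Summed over each complex, nuclear-encoded mRNA of complex IV had the highest ratios to control. Complex IV genes summed to 934, 677 and 778 CPM in CoCl2-tolerant, 1247, 929 and 1505 CPM in low-glucose-tolerant and 578, 621 and 607 CPM in control libraries. The 3 groups overlapped only between the tolerant lines, and the means were 1.32 and 2.04 times control in the CoCl2-tolerant and low-glucose-tolerant lines. For complexes I, III and V the corresponding ratios were 1.15 and 1.27, 1.07 and 1.24, and 1.08 and 1.31. Much of the complex IV sums came from COX4I1 and COX7A2L. COX4I1 averaged 276, 461.3 and 186.9 CPM in CoCl2-tolerant, low-glucose-tolerant and control libraries, and COX7A2L 104.9, 267.8 and 73.57 CPM. In complex III and complex V sums, CoCl2-tolerant replicate 2 lay below all control libraries.

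Most of the 13 subunits encoded in mitochondrial DNA went the other way. In the CoCl2-tolerant line 12 fell (92.3%, where 18.2% of all genes did) and MT-ND1 did not pass, at a median log2 fold change of -0.85. In the low-glucose-tolerant line 9 fell (69.2%, where 34.6% of all genes did), MT-ND3 rose and 3 did not pass, at a median of -0.84. The 13 summed to 38817, 53204 and 42128 CPM in CoCl2-tolerant, 41469, 43283 and 41464 CPM in low-glucose-tolerant and 80046, 66839 and 84039 CPM in control libraries. Both tolerant lines were below control with no overlap. The nuclear over the mitochondrial sum averaged 0.111 ± 0.0309 in CoCl2-tolerant, 0.141 ± 0.0294 in low-glucose-tolerant and 0.0559 ± 0.00751 in control libraries (SD, n = 3 each). Leaving the mitochondrially encoded genes out before scaling left 18 nuclear subunit genes higher in the CoCl2-tolerant and 37 in the low-glucose-tolerant line.

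**Figure D4:**
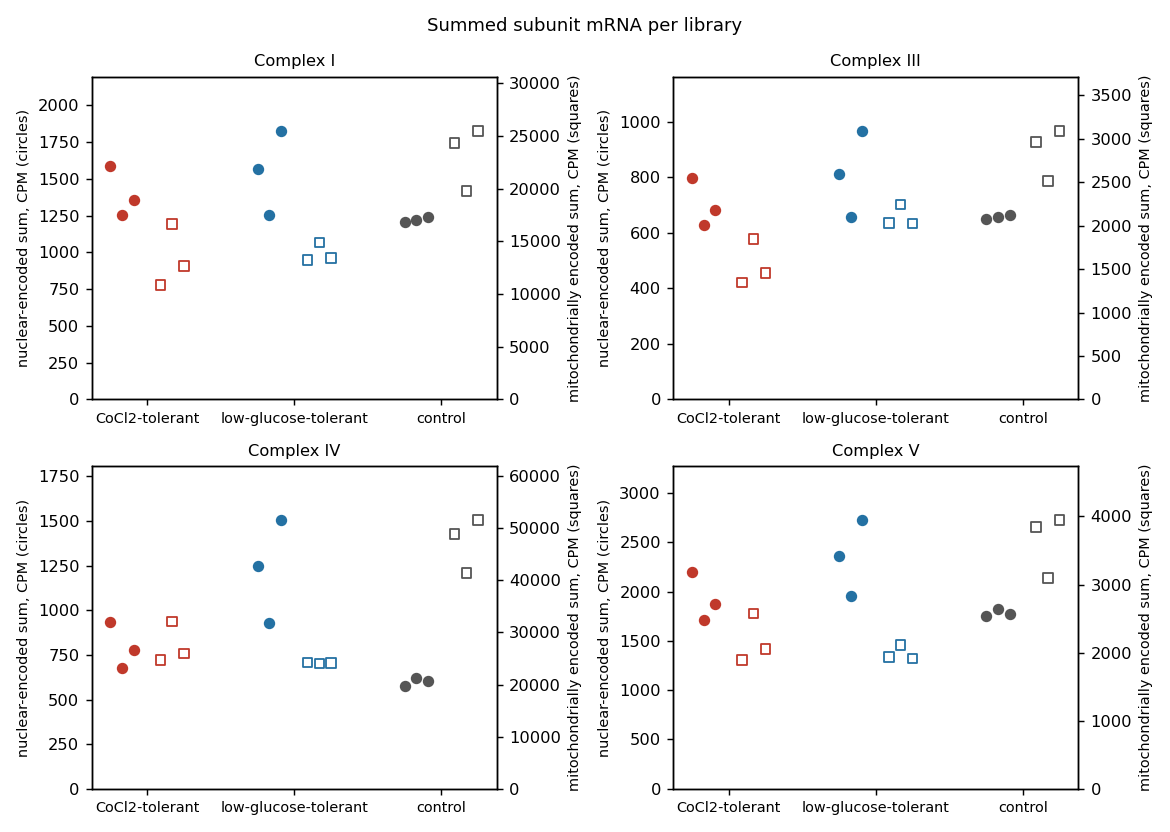
Summed CPM of nuclear-encoded (circles, left axes) and mitochondrially encoded (squares, right axes) subunit mRNA of each complex, by library, with axes from 0. Mitochondrially encoded sums are lower in both tolerant lines than in control for all 4 complexes, while nuclear-encoded sums of complex IV are higher.

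MT-CO1, the catalytic core of complex IV, and COX4I1, its nuclear neighbour, show the contrast within 1 enzyme. MT-CO1 had log2 fold changes of -0.89 in the CoCl2-tolerant (edgeR adjusted p = 0.000133) and -1.29 in the low-glucose-tolerant line (adjusted p = 8.28e-07), where COX4I1 had 0.56 and 1.30. MT-ND3 measured 138.4, 207.6 and 172.1 CPM in CoCl2-tolerant, 674.7, 566.3 and 744.2 CPM in low-glucose-tolerant and 298.5, 291.4 and 343.0 CPM in control libraries. It fell in the CoCl2-tolerant line (-0.85) and alone among the mitochondrial subunit transcripts rose past the threshold in the low-glucose-tolerant line. There MT-ND1 (0.26) lay above control without overlap but did not pass.

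Assembly factors were counted beside the subunits. Of 55 tested assembly factors, which fold and insert subunits and their metals, 13 rose and 1 (SCO1) fell in the CoCl2-tolerant line. These were 23.6 and 1.82% of the list, where 17.9% of all genes rose and 18.2% fell. In the low-glucose-tolerant line 34 rose and 9 fell, or 61.8 and 16.4%, where 34.6% of all genes went each way. SURF1, needed to build complex IV, had log2 fold changes of 0.54 and 1.43 in the CoCl2-tolerant and low-glucose-tolerant lines, both past the threshold. COX20, which helps mature the oxidase subunit MT-CO2, fell by 3.06 on the log2 scale in the low-glucose-tolerant line (edgeR adjusted p = 2.11e-06). That fall rests on few reads, with 3, 9 and 5 in low-glucose-tolerant and 52, 62 and 48 in control libraries. The 4 genes of complex II, the succinate dehydrogenase, had log2 fold changes of -0.05 to 0.30 in the CoCl2-tolerant line that did not pass, and in the low-glucose-tolerant line SDHB, SDHC and SDHD rose and SDHA fell. NDUFAB1, the acyl carrier protein that sits in complex I, rose in the low-glucose-tolerant line by 1.85 (edgeR adjusted p = 2.78e-07).

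Genes listed as mitochondrial targets of HIF, NDUFA4L2 among them, were counted in the same way. A place on this list, as for GPD1L, does not fix where the protein lies or which way HIF moves the gene. Neither was tested. In the CoCl2-tolerant line 8 of 10 tested rose (80%, where 17.9% of all genes did) and GPD1L fell. Those that rose include PDK1, which holds back pyruvate oxidation (1.65), and the mitophagy receptors BNIP3 (1.93) and BNIP3L (1.5). In the low-glucose-tolerant line 4 rose, among them NDUFA4L2 and LONP1, a share of 40% near the 34.6% of all genes. The 2 that fell (20%, where 34.6% of all genes did) were PDK3 (-2.59) and FAM162A (-0.75). There PDK1, BNIP3 and BNIP3L measured -0.20, 0.19 and 0.05 without passing. Tested directly, 5 of the 10 were higher in the CoCl2-tolerant line (50%, where 31.9% of all genes were). The lower ones were 4 (40%, where 32% of all genes were). PDK3 and FAM162A were higher by 3.43 and 2.38, and PDK1, BNIP3 and BNIP3L by 1.85, 1.74 and 1.46. NDUFA4L2 was among the lower at -1.49, with GPD1L at -1.42 and LONP1 at -0.33.

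Among 14 regulators of mitochondrial biogenesis, 2 rose and 1 fell in the CoCl2-tolerant line, and 6 rose and 2 fell in the low-glucose-tolerant line. The shares that rose, 14.3 and 42.9%, were near the 17.9 and 34.6% of all genes. The shares that fell, 7.14 and 14.3%, lay below the 18.2 and 34.6% of all genes. ESRRA, a nuclear receptor that drives genes of oxidative metabolism, measured 21.8, 14.5 and 15.4 CPM in CoCl2-tolerant, 44.0, 42.5 and 59.4 CPM in low-glucose-tolerant and 14.7, 16.8 and 17.3 CPM in control libraries (log2 fold change 1.58 in the low-glucose-tolerant line, edgeR adjusted p = 1.29e-06). The coactivator PPARGC1B fell in both lines, by 1.12 and 2.03 on the log2 scale in the CoCl2-tolerant and low-glucose-tolerant lines. PPARGC1A went the other way in the low-glucose-tolerant line, with a rise of 0.95 (edgeR adjusted p = 0.00561). That rise rests on 178 reads over the low-glucose-tolerant and 102 over the control libraries. In the CoCl2-tolerant line PPARGC1A measured -0.28 without passing. TFAM, which packages and transcribes mitochondrial DNA, rose by 0.62 in the low-glucose-tolerant line, and POLG of the same list fell by 1.37 there.

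The subunit genes lie on 22 chromosomes, and in the low-glucose-tolerant line whole chromosomes stood apart. The median log2 fold change of the other genes was 0.73 on chromosome 7 and 0.67 on chromosome 16, against -0.46 on chromosome 5 and -0.45 on chromosome 15. On chromosome 7 all 4 subunit genes tested (NDUFA4, NDUFA5, NDUFB2 and ATP5MF) rose, where 68.4% of the other genes did. All 3 on chromosome 16 (NDUFB10, UQCRC2 and COX4I1) rose, where 66% of the other genes did. Of the 5 on chromosome 5, NDUFS6 fell and the others did not pass, and 17.8% of the other genes there rose. All 6 on chromosome 12, where the other genes had a median of 0.23 and 46.1% of them rose, also rose. With the median of each gene's own chromosome subtracted, the median of the subunit genes was 0.26 in the CoCl2-tolerant line, against 0.27 before, and 0.22 in the low-glucose-tolerant line, against 0.38 before. For CoCl2-tolerant minus low-glucose-tolerant it was 0.03, against -0.12 before. COX7A2L lay on chromosome 2, where the other genes had a median of -0.04, and ATP5MC2 and NDUFA4L2 on chromosome 12. Copy number was not measured, and its part in these values was not tested.

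**Figure D5:**
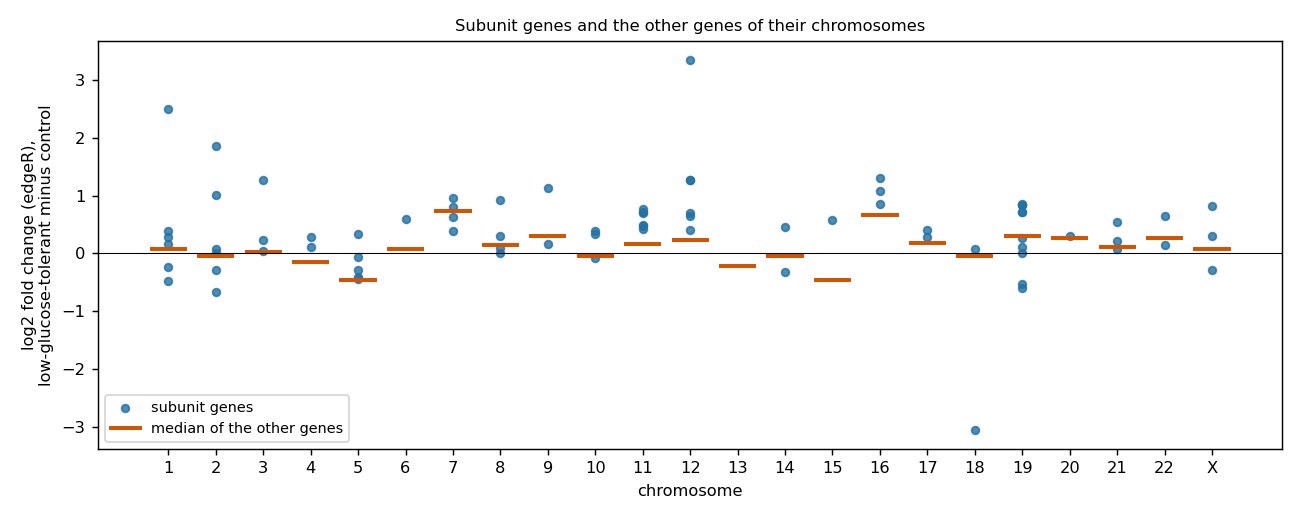
Log2 fold change (edgeR) of each tested subunit gene in the low-glucose-tolerant line minus control, by chromosome (points), with the median of the other genes of that chromosome (bars). Bars are highest on chromosomes 7 and 16 and lowest on 5 and 15, and all points on chromosomes 5, 15 and 16 and 2 of the 4 on chromosome 7 lie above their bar.

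Subunit transcripts are short, with a median longest transcript of 1582 bases, against 3099 over the genes tested with a length. Removing the trend on length and GC content gave 21 genes higher and 2 lower in the CoCl2-tolerant line, and 48 higher and 6 lower in the low-glucose-tolerant line. Processed pseudogenes named after the subunit genes (70 of them) held 0.18 to 0.248% of the joint counts in any library. Exon bases shared with another annotated gene exceeded 10% for 21 of the 77 genes, among which 7 rose in the CoCl2-tolerant and 9 in the low-glucose-tolerant line, and the strand setting of the counting is not given in the sources used here.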

How the data were processed

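Messenger RNA of 9 libraries was sequenced on an Illumina NovaSeq, per the labels' protocols. The deposited values are raw read counts per gene. Per the submitters' processing notes, the authors used featureCounts, DESeq2 and GRCh38, with no aligner, strand or annotation release given in these sources. Symbols came from a gene name table (35938 of 36018 identifiers, 76 more from GENCODE release 29), and positions and exon lengths from GENCODE for 34888.

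From the counts, genes passing edgeR's filterByExpr (17902) were fitted with edgeR 4.0.16 in R 4.3.3, with TMM factors of 0.922 to 1.04, 1 mean per group, no covariate and all 9 libraries (biological coefficient of variation 12.6%). Quasi-likelihood p-values received Benjamini-Hochberg adjustment over all genes of a comparison, with calls under 0.05. CPM used library totals times TMM factors, and levels per length divided by kilobases of annotated exon. A count of 3 equals 0.0918 to 0.119 CPM, and depth gives no firm value for genes near it. Intervals use 95% limits.

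Genes were named by a rule. It took NDUFA4L2, COX4I2, isoform pairs, the catalytic subunits and ATP5IF1 whatever their values, and up to 3 rises and 3 falls per complex and comparison among calls without overlap at 1 CPM or more. From the other lists it took up to 2 per comparison and direction. A gene that the rule names is not reported here. COX5A, NDUFA5, NDUFB2, NDUFS6, UQCRC1, UQCRH, ATP5MF, SDHB, SDHD, NRF1, TFAM, PDK1, BNIP3L, LONP1, MT-ND1, cell type markers and subunits listed as not passing lie outside the rule and were chosen after their values were seen. The members and lists were chosen with earlier results of these data known. Alternatives were DESeq2 1.42.0, its size factors, library totals, other filters, a fit of 2 groups, a replicate block, omission of mitochondrially encoded or cytosolic ribosomal protein genes, removal of a trend on transcript length and GC content, and each library left out. Replicate numbers did not pair the libraries. The residuals of libraries with the same number correlated at -0.26 to 0.124, and those with different numbers at -0.242 to 0.205. Libraries of a group differed by more than counting error. The procedure was tested on simulated counts. Figures used matplotlib 3.10.9.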

Additional observations from a re-analysis of the deposited data

How the results depend on the processing

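Of 53 pairs of a named gene and a comparison that passed the test, 39 kept the call and direction under all alternatives, and 14 lost it at least once. NDUFS1 in the low-glucose-tolerant line reversed, at 0.27 against -0.28, when the trend on transcript length and GC content was removed (edgeR adjusted p = 0.021). In the CoCl2-tolerant line against control, 18 genes were higher and 0 lower. Without the filter on counts 28 were higher and 1 lower, in a fit of those 2 groups alone 33 and 1, and 2 were lower after removal of the length and GC trend. For CoCl2-tolerant minus low-glucose-tolerant, removing that trend gave 30 lower in place of 19. The causes were not tested. With each library left out in turn, the CoCl2-tolerant line had 6 to 30 genes higher and 0 to 1 lower against control, the low-glucose-tolerant line 32 to 51 higher and 3 to 9 lower, and the direct comparison 6 to 19 higher and 13 to 33 lower. Using the replicate number as a block gave 16 higher and 0 lower in the CoCl2-tolerant line, 37 and 7 in the low-glucose-tolerant line, and 11 and 19 in the direct comparison. Other alternatives left these counts within 1.5 times. Library totals in place of TMM shifted all genes by -0.10 on the log2 scale in the low-glucose-tolerant line against control. Each line was raised once, so tolerance and line cannot be told apart. The level of mRNA does not give protein or respiration, and genes with few counts (NDUFV2, COX4I2, COX20) are limited by depth.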
